A study of Homo sapiens with 18 samples.

Results

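Chromosome 19 carries the densest set of zinc finger genes in the human genome, and the accessibility of their chromatin was described in Ccd18-Co, an established human line of colon fibroblasts. The set held 240 protein-coding genes whose symbol is ZNF followed by digits, in the hg38 annotation of GENCODE release 44. A peak belonged to the set where at least 1 of its bases overlapped the body of such a gene or the 3 kb before it. This rule took 814 of the 334857 peaks of the series and of the 12520 peaks on chromosome 19, and it used no measured value. Of these peaks, 240 lay within 500 bp of the start of a gene's canonical transcript and are called start peaks. Another 551 lay over gene bodies and are called body peaks, 38 of them over a last exon, and 23 lay only upstream. In all, 230 genes had a start peak, 10 had none, and 4 had no peak of any kind. A single long gene, ZNF536, a regulator of neuronal differentiation with a body of 488696 bp, held 133 of the body peaks.

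Bulk ATAC-seq, in which a transposase cuts open chromatin, was run on 18 libraries in 3 groups of 6. Unstimulated cells received no cytokine. Both stimulated groups received 3 pulses of TNF, oncostatin M and IL-17A at 10 ng/ml each with IL-1β at 0.1 ng/ml, each pulse of 72 h being followed by 96 h of recovery. After 1 week of rest the stimulated cells were given either DMSO, the solvent, or belinostat, an inhibitor of histone deacetylases, at 250 nM for 5 days, and were collected 2 weeks later. These doses are those of the sample labels, and the study's text gives other values for belinostat and in places for IL-1β. The labels do not say whether unstimulated cells were given DMSO. The study's methods describe a fixed DMSO dilution over the groups of a modulator treatment, without naming the unstimulated cells of this assay. All libraries come from 1 line, nothing says that they are separate cultures, and the p-values therefore measure only the spread between these libraries. The difference between DMSO and unstimulated libraries is called the cytokine contrast, that between belinostat and DMSO the belinostat contrast, and that between belinostat and unstimulated the residual contrast. The 3 contrasts share libraries.

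Libraries held 7077321 to 11352032 fragments in peaks in the unstimulated group, 6488975 to 8066642 after DMSO and 4661678 to 6370845 after belinostat, so belinostat libraries were all shallower than the others. The start peaks of 6 fibroblast markers, COL1A1, COL1A2, COL3A1, PDGFRB, THY1 and VIM, averaged between 2.12 and 6.26 log2 CPM (the log2 of library-scaled counts) over the groups. Of 6 markers of epithelial, immune and endothelial cells, PTPRC and CDH5 had no start peak, CDH1, CD3E and PECAM1 stayed at 0.17 log2 CPM or lower, and EPCAM averaged between 1.33 and 1.66 log2 CPM.

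Most of these genes encode proteins with a row of C2H2 zinc fingers, each of which reads a few bases of DNA, and many also carry a KRAB domain. The KRAB domain recruits TRIM28, a scaffold for SETDB1, which methylates lysine 9 of histone H3, for heterochromatin proteins and for histone deacetylase complexes. Many of the proteins bind and silence retrotransposons. The genes arose by repeated local duplication, so that neighbours resemble each other, and their last exons, which encode the fingers, are known in other cells as a rare case of transcribed DNA packed with methylated lysine 9. Their promoters are usually active in most cell types.

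The genes fell into 12 clusters of 5 to 41 genes, joined where neighbouring bodies lay at most 250 kb apart, and 14 genes were scattered. Cluster 5 was the longest (3594 kb, chr19:20535825-24129968, from ZNF737 to ZNF254, 29 genes), and cluster 12, at the far end of the long arm, held the most genes (41 genes, chr19:57191500-58481230, from ZNF264 to ZNF446). A set of 5 starts of cluster 5 are shown because they share most of their sequence and differ in accessibility, with the strongest start of the whole set, that of ZNF558, beside them. Each runs from 250 bp before to 50 bp after the canonical start, is read from hg38 on the strand of the gene, and has in capitals the 7-base ETS word CCGGAAG or its reverse complement CTTCCGG. The windows are chr19:23395422-23395721 on the minus strand for ZNF91, chr19:22010894-22011193 on the minus strand for ZNF208, chr19:24086937-24087236 on the plus strand for ZNF254, chr19:22422297-22422596 on the minus strand for ZNF98, chr19:22634074-22634373 on the plus strand for ZNF492 and chr19:8832255-8832554 on the minus strand for ZNF558.
ZNF91: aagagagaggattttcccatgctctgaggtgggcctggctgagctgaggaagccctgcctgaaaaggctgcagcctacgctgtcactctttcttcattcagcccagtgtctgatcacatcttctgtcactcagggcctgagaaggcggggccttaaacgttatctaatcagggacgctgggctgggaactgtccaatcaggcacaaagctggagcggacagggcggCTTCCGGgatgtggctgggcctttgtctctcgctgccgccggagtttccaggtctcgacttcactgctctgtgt
ZNF208: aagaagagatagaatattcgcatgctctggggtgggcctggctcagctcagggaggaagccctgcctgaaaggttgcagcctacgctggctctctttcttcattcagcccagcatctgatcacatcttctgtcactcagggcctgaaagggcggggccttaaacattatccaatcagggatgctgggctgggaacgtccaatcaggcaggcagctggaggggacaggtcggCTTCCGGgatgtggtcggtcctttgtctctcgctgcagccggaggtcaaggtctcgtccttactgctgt
ZNF254: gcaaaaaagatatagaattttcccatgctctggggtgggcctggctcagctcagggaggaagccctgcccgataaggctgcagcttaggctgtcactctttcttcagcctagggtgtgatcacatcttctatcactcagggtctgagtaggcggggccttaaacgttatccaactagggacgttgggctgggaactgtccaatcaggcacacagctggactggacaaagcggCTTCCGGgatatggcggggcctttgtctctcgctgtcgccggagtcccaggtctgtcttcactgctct
ZNF98: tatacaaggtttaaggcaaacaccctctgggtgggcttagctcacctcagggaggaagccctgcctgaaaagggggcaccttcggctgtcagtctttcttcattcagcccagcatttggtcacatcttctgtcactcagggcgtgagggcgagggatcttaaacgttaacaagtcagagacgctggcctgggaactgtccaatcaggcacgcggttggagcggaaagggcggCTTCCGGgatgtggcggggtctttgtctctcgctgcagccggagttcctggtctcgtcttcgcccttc
ZNF492: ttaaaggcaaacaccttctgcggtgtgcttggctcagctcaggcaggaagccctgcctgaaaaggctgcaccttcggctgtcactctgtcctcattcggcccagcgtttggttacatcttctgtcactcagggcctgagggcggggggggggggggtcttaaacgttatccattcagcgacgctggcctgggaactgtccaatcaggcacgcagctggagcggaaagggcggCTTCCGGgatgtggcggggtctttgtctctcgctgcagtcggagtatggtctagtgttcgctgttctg
ZNF558: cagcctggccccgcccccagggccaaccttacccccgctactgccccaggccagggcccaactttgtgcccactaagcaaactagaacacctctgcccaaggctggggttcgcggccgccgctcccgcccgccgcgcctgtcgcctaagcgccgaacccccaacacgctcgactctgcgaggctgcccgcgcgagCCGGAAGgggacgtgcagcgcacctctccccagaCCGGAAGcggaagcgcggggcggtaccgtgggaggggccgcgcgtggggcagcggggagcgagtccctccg

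The 5 windows of cluster 5 each held the word once, as CTTCCGG, with positions from -21 to -15 bp relative to the start, whereas ZNF558 held it at -52 and -18. ZNF208 was identical to ZNF91 at 87.7% of positions after global alignment, yet ZNF91 had a start peak of 5.22 log2 CPM (over the whole peak) in unstimulated cells and ZNF208 had none. ZNF254, 87.0% identical to ZNF91, had a whole-peak level of 4.83 log2 CPM. ZNF98 and ZNF492, 86.7% identical to each other, had whole-peak levels of -1.13 and -0.54 log2 CPM, the lowest of the set. The ZNF98 peak is 155 bp wide and centred 221 bp before the start, so it covers neither the start nor the word. Among all 28680 pairs of windows the median identity was 50.7%, and 173 pairs from 40 genes reached 80%, of which 151 lay within clusters 4 and 5. In the 156 such pairs where both genes had a start peak, the 2 whole-peak levels differed by a median of 0.87 log2 CPM, and by more than 2 in 34 pairs. Reads that fit several copies equally well can be lost from or shared between such genes, and the part of this in the levels was not tested.

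Of the words searched, the ETS word, bound by GABPA and related factors, differed most from the background. It stood in 105 of 240 windows (43.8%), against 34.8% of the 236 windows of ZNF genes on other chromosomes, 15.5% of the 1236 windows of other genes on chromosome 19 and 14.1% of all 20033 protein-coding starts. The word was searched on both strands, and 94 windows held it once and 11 more than once. Of the 117 words, 94 lay within 50 bp of the start, with a median position of -15. The share differed between clusters: 23 of 29 genes in cluster 5 (79.3%), 24 of 39 in cluster 9 (61.5%) and 25 of 41 in cluster 12 (61.0%), but 2 of 25 in cluster 3 (8.0%) and 0 of 5 in cluster 1. Since neighbours arose by duplication, these windows are not independent of each other.

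**Figure D1:**
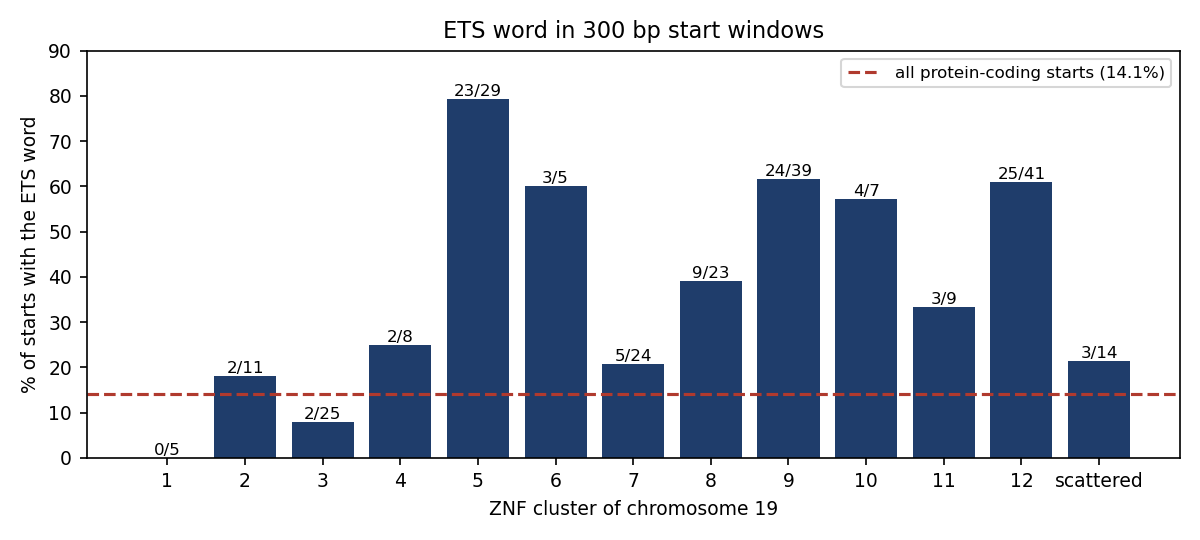
Bars give the share of ZNF starts (in %) whose 300 bp window holds the ETS word, by cluster along chromosome 19, with the number of genes that hold it and of all genes above each bar and all protein-coding starts as the dashed line at 14.1%. Cluster 5 stands highest at 79.3% and cluster 1 at 0.

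The other words differed less. GGGCGG, the SP and KLF word, stood in 69.2% of ZNF windows against 61.3% of all starts, ACTACAA, part of the ZNF143 motif, in 5.83% against 2.99%, and TGANTCA, the AP-1 word, in 5.42% against 5.44%. CACGTG, the E-box, stood in 3.33% against 8.76%. GCATGCGC of NRF1 (3.75% against 4.27%), ATGGCGGC of YY1 (5.0% against 4.56%) and TGACGTCA of CREB and ATF (3.75% against 2.69%) were close to the background. The windows were also poorer in G and C, with a median of 59.3% against 63.7% for all starts, at a similar ratio of observed to expected CG dinucleotides (0.77 against 0.78). A match is a description of the letters in the window and says nothing of what is bound there.

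Nearly all ZNF starts were open. Of the 240 genes, 95.8% had a start peak, against 94.5% of ZNF genes on other chromosomes, 78.7% of the other genes of chromosome 19 and 80.3% of all other protein-coding genes. Taking the strongest start peak of each gene, the median of the unstimulated means was 4.57 log2 CPM over the whole peak, the quartiles were 3.88 and 5.19, and 221 of 230 genes stood at 2 or higher. The median SD over the 6 unstimulated libraries was 0.15 on the log2 scale. Per kb of peak, the median over all 240 ZNF start peaks was 4.51 log2 CPM, against 4.48 for ZNF starts elsewhere, 3.93 for other starts of chromosome 19 and 4.05 for all other starts.

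The strongest start peak was that of ZNF558, at chr19:8831976-8833173, whose 6 unstimulated libraries ran from 6.56 through a median of 6.67 to 6.84 log2 CPM. ZNF574 (median 6.56), ZNF444 (6.51) and ZNF564 (6.20) followed. Neighbours in this order overlapped in their 6 libraries. These 4 peaks were 782 to 1198 bp wide, and per kb ZNF444 stood highest at 6.87 log2 CPM, with ZNF558 at 6.43, ZNF574 at 6.42 and ZNF564 at 6.08. The start peak of ZNF564 is shared with other annotated genes, as were those of 33 ZNF genes in all. At the other end, ZNF98 ran from -1.81 to -0.57 log2 CPM over the unstimulated libraries, ZNF492 from -1.81 to 0.24, ZNF556 from -0.79 to 0.04 and ZNF257 from -0.78 to 0.41. These ranges overlapped, so the order among the 4 weakest was within their spread. Per kb of peak they stood at 1.56, 1.40, 1.24 and 1.90 log2 CPM. The 9 genes under 2 log2 CPM were these 4 with ZNF177, ZNF835 and the scattered ZNF114, ZNF296 and ZNF541.

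Genes with no start peak gathered in cluster 5, which held 6 of the 10: ZNF208, ZNF676, ZNF729, ZNF99, ZNF723 and ZNF728. The others were ZNF404, ZNF534, ZNF83 and ZNF536. For ZNF676, ZNF404, ZNF83 and ZNF536 the canonical start lies inside the annotated gene body. A peak at an outer start of these genes was not counted as a start peak. Their body peaks numbered 0, 1, 8 and 133. In cluster 5 the windows of these 6 genes had a median GC share of 57.7% and those of the 23 genes with a peak 56.0%, and the ETS word stood in 3 of 6 and in 20 of 23. Over all clusters the median whole-peak start level ran from 3.68 log2 CPM in cluster 2 to 5.36 in cluster 1. Per kb of peak, starts with the word had a median of 4.53 log2 CPM (101 genes) and those without it 4.61 (129 genes), against 4.54 and 4.11 for the starts of other genes.

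**Figure D2:**
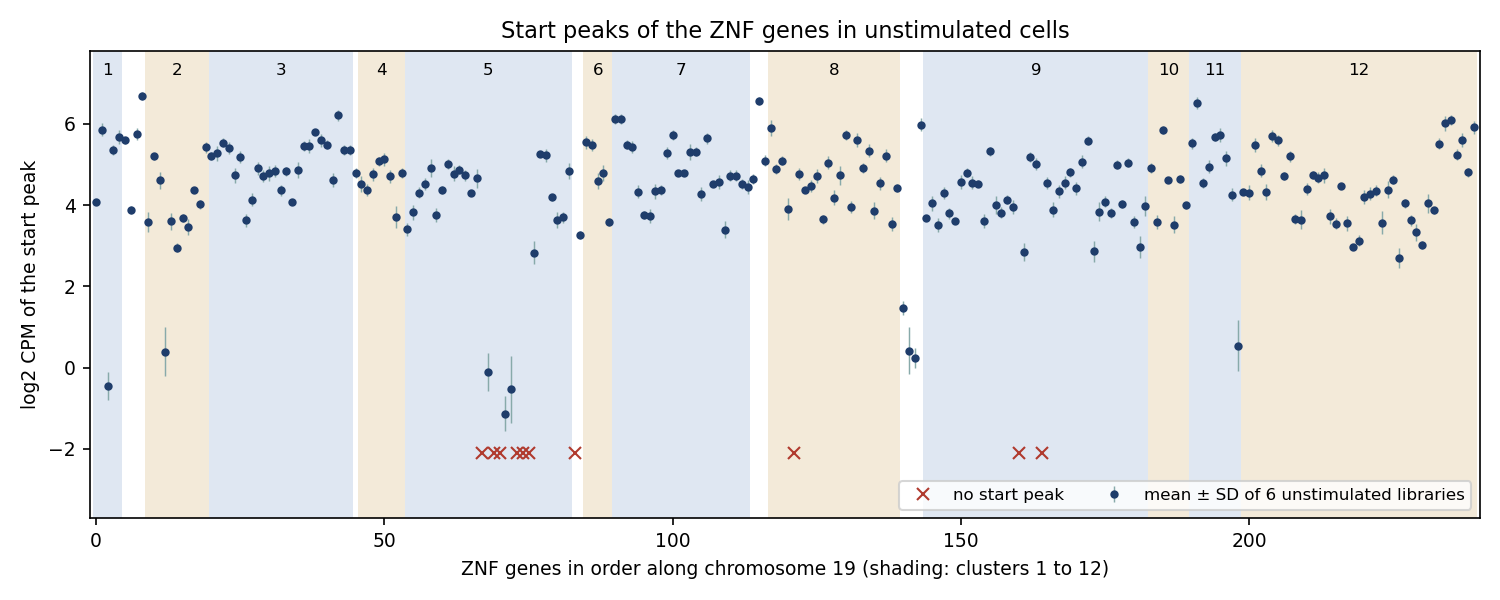
Each point is the strongest start peak of 1 ZNF gene, in gene order along chromosome 19, as the mean log2 CPM ± SD of the 6 unstimulated libraries, with clusters 1 to 12 shaded. Most genes lie between 3 and 6, and the crosses mark 10 genes with no start peak, 6 of them in cluster 5.

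In contrast to the starts, the gene bodies held few peaks. There were 7.49 body peaks per 100 kb of ZNF gene body, and 6.09 without ZNF536, against 12.5 for ZNF genes on other chromosomes, 25.4 for other genes of chromosome 19 and 13.1 for all other protein-coding genes. No body peak was found in 102 of 240 ZNF genes (42.5%), against 18.3% of the other genes of chromosome 19 and 20.2% of all other genes. Cluster 6, from ZNF302 to ZNF792, held 0 body peaks over 5 genes, cluster 4 held 1.38 and cluster 7 held 2.69 per 100 kb, whereas cluster 11 held 15.7. Over the last exons, which encode the fingers in most of these genes, there were 38 peaks or 4.28 per 100 kb, against 14.1 for ZNF genes elsewhere, 40.9 for other genes of chromosome 19 and 20.6 for all other genes. Only 12.5% of ZNF genes had a peak over the last exon, against 35.4% of the other genes of chromosome 19. The peaks were called by the authors over all conditions. The study's text does not say how reads that fit several places were handled, and how far repeated finger sequence lowers these counts was not tested.

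**Figure D3:**
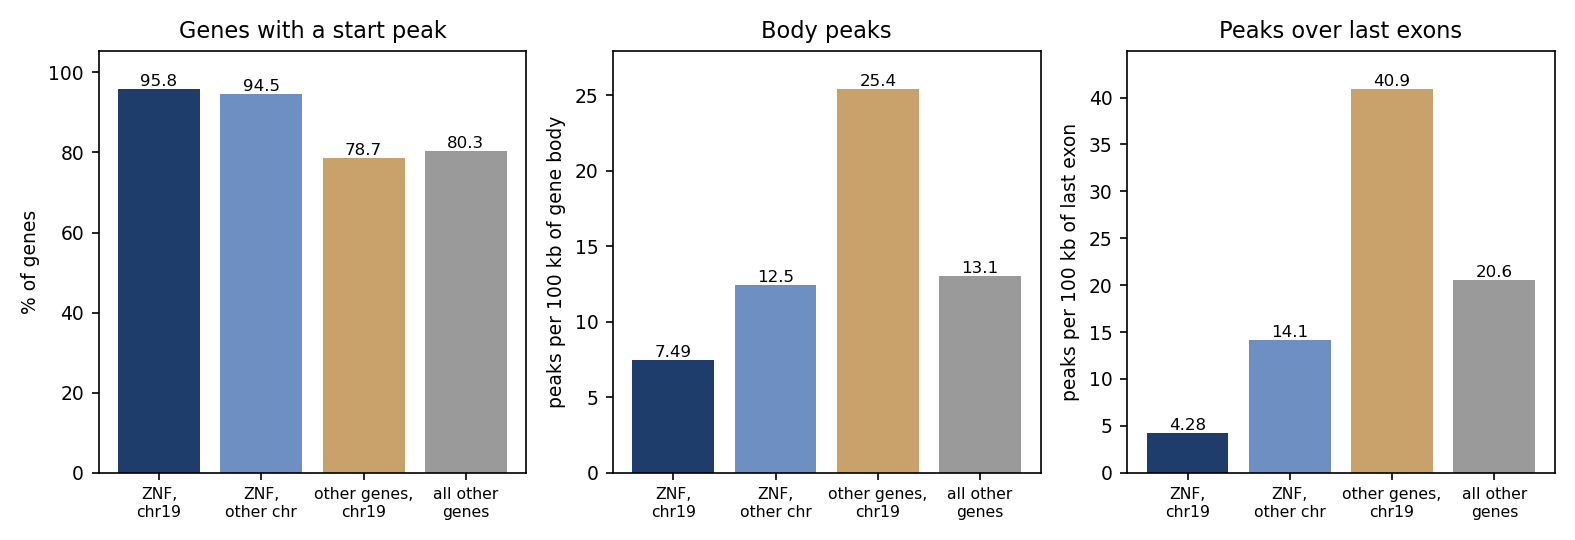
Bars give, for 4 gene classes, the share of genes with a start peak (%), the body peaks per 100 kb of gene body and the peaks over last exons per 100 kb of last exon. ZNF genes of chromosome 19 stand highest for starts (95.8%) and lowest for bodies (7.49) and last exons (4.28).

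Like the body peaks of other genes, the ZNF body peaks were narrow and weak. Their median width was 256 bp and their median average 0.03 log2 CPM over the 18 libraries, against 992.5 bp and 4.24 log2 CPM for the start peaks. Body peaks of other chromosome 19 genes had medians of 270 bp and 0.22 log2 CPM, and those of all other protein-coding genes 270 bp and 0.21. The SD of ZNF body peaks over unstimulated libraries had a median of 0.42 on the log2 scale. It was 0.15 for the start peaks and 0.44 and 0.41 for these other body peaks. The AP-1 word stood in the central 200 bp of 52 of 551 body peaks (9.44%), against 8.34% of body peaks of other chromosome 19 genes and 2.08% of the ZNF start peaks. Together the start peaks took 0.55% ± 0.02 (SD, n = 6) of all counts in unstimulated libraries, and the body peaks outside ZNF536 0.0982% ± 0.0017.

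The first comparison asked what remained of the cytokine pulses in cells that had since rested in DMSO. In the edgeR quasi-likelihood test with Benjamini-Hochberg adjustment over all 334857 peaks, 164 of 240 ZNF start peaks (68.3%) were closed, meaning lower after cytokines at an adjusted p under 0.05, and 0 were opened, and without adjustment 201 were lower and 2 higher at that threshold. Over all peaks 9.73% were closed and 9.51% opened. Without adjustment 49156 of the 334857 peaks were lower and 64846 higher, and of the 17124 start peaks of other protein-coding genes 10898 and 842. The shift of the ZNF start peaks was small and similar across genes: the median was -0.34 on the log2 scale, 80% of the start peaks lay between -0.43 and -0.21, and 233 of 240 were below 0. In 53 start peaks every DMSO library lay below every unstimulated one, against 3.82% of all peaks and 20.8% of the start peaks of other genes.

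This shift was shared with other starts. The start peaks of all other protein-coding genes had a median of -0.33, and 51.6% of them were closed, while ZNF starts on other chromosomes had a median of -0.36 and 71.7% closed. Strong peaks passed the test more often in each class. In 5 bins by average strength, with edges at 1.35, 3.15, 4.16 and 4.88 log2 CPM, ZNF start peaks were closed in 0, 35.3, 53.8, 80.6 and 96.7% of cases, and the start peaks of other genes in 1.24, 19.8, 59.1, 83.8 and 95.1%. In the weakest bin the median shift was -0.21 for the 13 ZNF start peaks and 0.23 for the starts of other genes. Counts in ZNF start peaks per 100 counts in the other start peaks were 1.75 ± 0.01 in unstimulated libraries, 1.76 ± 0.02 after DMSO and 1.75 ± 0.02 after belinostat (SD, n = 6). The libraries of the groups overlapped, at 1.73 to 1.76, 1.74 to 1.79 and 1.74 to 1.77. As a share of all counts, the start peaks of other genes took 31.3% ± 0.9 in unstimulated libraries, 28.5% ± 1.1 after DMSO and 27.5% ± 1.8 after belinostat. In bulk samples, fewer cells with an open site and less signal per cell cannot be told apart.

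The count rested on the scale. With 1 factor per library from the trimmed mean of M values (TMM) the median of all peaks was 0.13 on the log2 scale, and strong peaks lay lower than weak ones. With loess offsets, which let the scale follow peak strength, the median of ZNF start peaks was 0.03, 91 of 240 were below 0, and 1 was closed and 0 opened, where 1.92% of all peaks were closed and 1.99% opened. None of the 164 was called with the loess offsets, and 86 of them turned sign. With library totals as the scale 17 were closed and 2 opened, and with DESeq2 104 were closed. Of the other protein-coding starts 14.4% were closed and 4.89% opened with library totals, and 36.1% were closed with DESeq2. Leaving out 1 library gave 78 closed without unstimulated replicate 6, 87 without unstimulated replicate 1 and 104 without DMSO replicate 4. In the same order 31.6, 34.0 and 37.0% of the other protein-coding starts were closed. With TMM factors from the weaker 50% alone the start median was -0.79 and that of all peaks -0.29. The single start peak closed with loess offsets was that of ZNF222, at chr19:44025793 (chosen after its values were seen), a weak peak with -0.77 under TMM at an adjusted p of 0.068 and -1.02 with loess offsets at an adjusted p of 0.039.

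**Figure D4:**
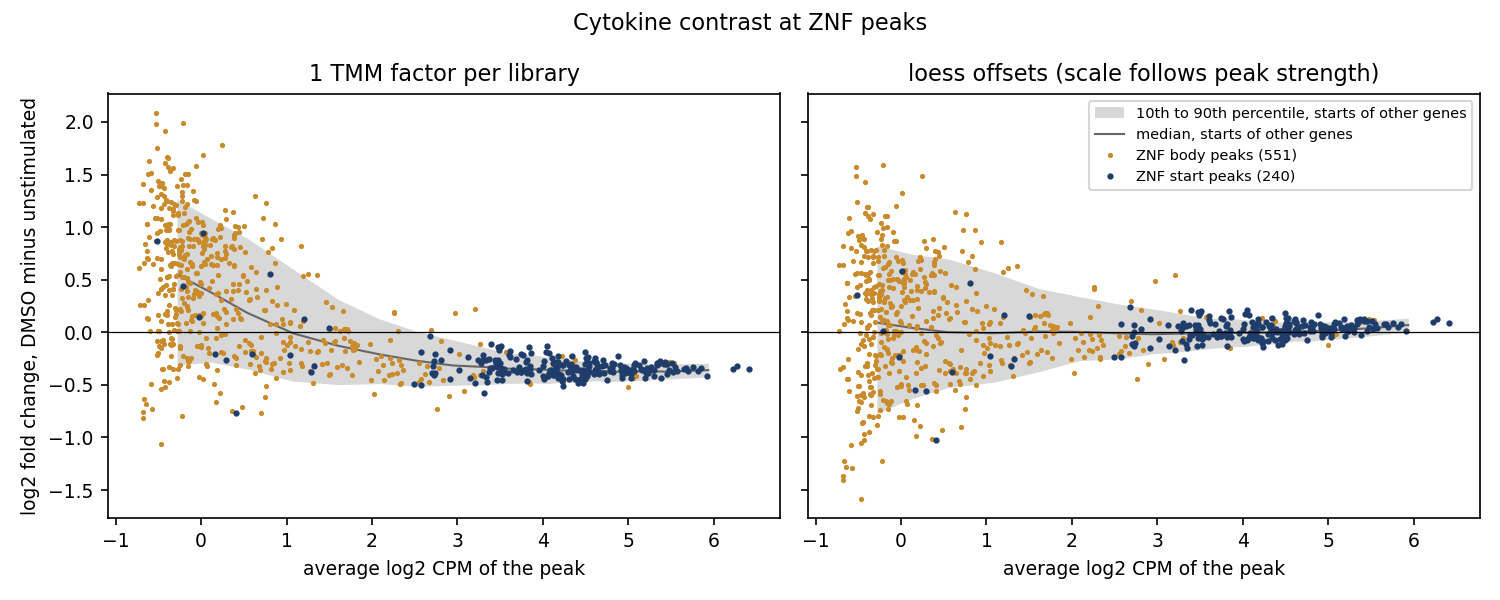
Points are ZNF start peaks (240) and body peaks (551), with average log2 CPM on the x axis and the log2 fold change of DMSO over unstimulated on the y axis, for TMM factors (left) and loess offsets (right), and the band and line give the 10th to 90th percentile and the median of the starts of all other genes. From 3.15 log2 CPM up the start peaks lie near that line on the left, and the few weakest lie apart from it. Over all 240 start peaks the median is -0.34 on the left and 0.03 on the right.

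The cluster made little difference to this shift. Cluster medians of the start peaks ran from -0.38 in cluster 6 to -0.31 in cluster 11 on the log2 scale, with -0.30 over scattered genes, and with loess offsets the medians ran from -0.01 in cluster 6 to 0.08 in cluster 11, with 0.09 over scattered genes. All 5 start peaks of cluster 6 were closed, 22 of 25 in cluster 3 and 5 of 11 in cluster 2. Of the other protein-coding starts 51.6% were closed, and of all peaks 9.73%. The clusters also differed in strength, with median whole-peak start levels of 4.80, 5.19 and 3.68 log2 CPM, and the part of strength in these counts was not tested. Start peaks with the ETS word had a median of -0.33 and those without it -0.36, against -0.35 and -0.33 for the starts of other genes.

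Among closed start peaks averaging at least 0 log2 CPM, the largest fall was in an accessory peak of ZNF93, a repressor of LINE-1 elements, at chr19:19900178-19900581, just before its start. Its level ran from 3.38 through a median of 3.89 to 3.93 log2 CPM in unstimulated libraries and from 2.94 through 3.22 to 3.37 after DMSO, with no overlap. It changed by -0.58 ± 0.13 on the log2 scale (± SE here and below) at an adjusted p of 0.0012 in edgeR, but by -0.26 at an adjusted p of 0.14 with loess offsets. After belinostat it ran from 2.05 to 3.28 log2 CPM (log2 fold change from DMSO -0.46 ± 0.15, adjusted p = 0.086). The main start peak of ZNF93, at chr19:19900644-19901066, changed by -0.38 ± 0.11.

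ZNF101 came next, at chr19:19668623-19669480 over its first exon, with unstimulated libraries from 4.27 to 4.76 and DMSO libraries from 3.76 to 4.29 log2 CPM and a log2 fold change of -0.51 ± 0.12 (adjusted p = 0.0012), and the 2 groups overlapped slightly. ZNF578 (-0.50 ± 0.15) and ZNF555 (-0.49 ± 0.15) followed, with overlapping libraries. Both passed the edgeR test, at adjusted p of 0.015 and 0.017, and neither did with loess offsets (0.33 and 0.35). The ZNF555 peak, at chr19:2841953-2842133, is 1 of 2 start peaks of that gene. It is 181 bp wide, lies in an intron and is centred 568 bp after the start.

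The 13 genes with described roles were read one by one, and 12 of their start peaks were closed in the edgeR test. Among all ZNF start peaks 68.3% were closed, among those of all other protein-coding genes 51.6% and among all peaks 9.73%. ZNF274, which binds the 3′ ends of other zinc finger genes and brings SETDB1 there, ran from 3.72 to 4.29 log2 CPM in unstimulated and from 3.37 to 3.78 in DMSO libraries, and its log2 fold change was -0.46 ± 0.12 (adjusted p = 0.0052). ZNF91, which silences SVA elements, ran from 5.10 to 5.51 and from 4.80 to 5.17 log2 CPM (-0.34 ± 0.11, adjusted p = 0.018). ZNF331, an imprinted gene, changed by -0.38 ± 0.12 and ZNF224, a repressor of aldolase A, by -0.41 ± 0.11. ZNF160 changed by -0.29 ± 0.10 and ZNF568, whose start peak is shared with ZNF829, by -0.34 ± 0.11. ZNF580, whose start peak also lies within the annotated body of ZNF581, changed by -0.36 ± 0.11. With loess offsets the 13 start peaks had adjusted p from 0.16 to 0.97, and 8 of them lay above 0.

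The start peaks of ZNF671, ZNF154, ZNF582, ZNF667 and ZNF382, genes often silenced by DNA methylation in tumours, were all open in these fibroblasts. Their unstimulated means were 3.12 ± 0.14 for ZNF671, 2.97 ± 0.07 for ZNF154, 4.55 ± 0.12 for ZNF582, 5.67 ± 0.11 for ZNF667 and 3.77 ± 0.10 for ZNF382 (log2 CPM, SD, n = 6). For the first 4 the cytokine contrast was closed, between -0.44 for ZNF671 and -0.28 for ZNF667, and for ZNF382 it was -0.24 ± 0.13 (adjusted p = 0.17). In ZNF671, ZNF154 and ZNF582 the 6 DMSO libraries all lay below the 6 unstimulated ones.

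Body peaks moved in both directions after cytokines, as peaks did in general. Of 551, 56 were opened (10.2%, background 9.51%) and 33 closed (5.99%, background 9.73%), with a median of 0.26 on the log2 scale over all 551 and 0.37 without ZNF536. The counts in each direction changed with the scale: library totals gave 103 opened and 9 closed, while TMM factors from only the weaker 50% gave 13 opened, 100 closed and a median of -0.15. All peaks moved with these scales too, with medians of 0.34 under library totals, where body peaks had 0.47, and -0.29 under the weaker 50%. The shares of all peaks called under these scales are not given here. Of the 38 last exon peaks 6 were opened and 1 closed. Outside ZNF536, 48 of 418 were opened and 22 closed, and inside it 8 of 133 and 11. With loess offsets 9 were opened and 1 closed, and 8 peaks were called in the same direction with both scales. Counts without single libraries ran from 29 to 62 opened and from 16 to 40 closed, the lowest of both without unstimulated replicate 6, and 30 opened without DMSO replicate 4, 34 without unstimulated replicate 1 and 36 without DMSO replicate 1. Closed counts fell to 18, 20, 21 and 21 without unstimulated replicate 1 and DMSO replicates 1, 4 and 5.

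The largest rise among opened body peaks averaging at least 0 log2 CPM lay in the body of ZNF98, at chr19:22521588-22522028. It is an intron of a longer ZNF98 transcript, 99.5 kb before the canonical start, and an exon of a long non-coding RNA gene, ENSG00000260599. Unstimulated libraries ran from -1.81 through a median of -0.80 to 0.41 log2 CPM and DMSO libraries from 0.30 through 0.68 to 1.12, so the groups overlapped slightly. This was a log2 fold change of 1.78 ± 0.38 (adjusted p = 0.00049, and 0.010 with loess offsets), and over all 26 alternative fits of this peak the adjusted p stayed at or under 0.010. Belinostat libraries ran from -0.03 to 0.69 log2 CPM. The start of ZNF98 itself, as given above, was among the weakest of all.

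ZNF837 held a rise over its second and last exons, at chr19:58369259-58369861, from an unstimulated mean of -0.25 ± 0.98 to 0.99 ± 0.41 log2 CPM after DMSO. The log2 fold change was 1.29 ± 0.32 (adjusted p = 0.0023, and 0.022 with loess offsets), and the groups overlapped. An intronic peak of ZNF565, at chr19:36202482-36202825, rose by 1.68 ± 0.45 (adjusted p = 0.0051) and missed the threshold with loess offsets (0.063).

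Among closed body peaks averaging at least 0 log2 CPM, the largest fall lay in an intron of ZNF536, 77.9 kb after its start, at chr19:30450067-30450577. Unstimulated libraries ran from 3.11 through a median of 3.21 to 3.35 log2 CPM, and DMSO libraries from 2.32 through 2.51 to 2.72, with a clear gap between the groups. The log2 fold change was -0.73 ± 0.15 (adjusted p = 0.00018), and with loess offsets it was -0.44 (adjusted p = 0.026), the one ZNF body peak closed on both scales. Belinostat libraries, at 1.80 to 2.83 log2 CPM, overlapped the DMSO ones. An intronic peak of ZNF555 at chr19:2848619-2849197 (-0.60 ± 0.15, adjusted p = 0.0029) and a peak past the canonical end of ZNF93 at chr19:19954207-19954890 (-0.59 ± 0.18, adjusted p = 0.013) followed, and neither passed with loess offsets (0.17 in both).

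The 23 upstream peaks had a median of -0.10 on the log2 scale in the cytokine contrast, with 3 opened and 3 closed (13.0% each, against 9.51 and 9.73% of all peaks), and 0 called in the belinostat contrast (0.607 and 1.75% of all peaks). At a p under 0.05 without adjustment 1 was higher and 2 were lower after belinostat, against 27502 and 25729 of all 334857 peaks.

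The second comparison asked what belinostat changed in cells that had had the same pulses. No ZNF start peak was called: 0 of 240 were opened and 0 closed in the edgeR test. The shares were 0.607 and 1.75% of all peaks and 0.128 and 0.654% of the other protein-coding starts. At a p under 0.05 without adjustment 36 ZNF start peaks were lower and 0 higher. Of the 17124 other protein-coding starts 2034 were lower and 382 higher, and of all 334857 peaks 25729 and 27502. The ZNF median was -0.13 on the log2 scale, the 80% in the middle lay between -0.25 and 0.02, and the other protein-coding starts had a median of -0.10. With loess offsets the ZNF median was 0.04 and again 0 were opened and 0 closed. This compares with 0.95 and 1.5% of all peaks and 1.41 and 0.403% of the other protein-coding starts. DESeq2 closed 3, and leaving out 1 library closed 11 without belinostat replicate 1, 2 without unstimulated replicate 6 or DMSO replicate 4, and 1 without belinostat replicate 3 or 4. Of the other protein-coding starts 1.355% were closed with DESeq2 and 5.5% without belinostat replicate 1. For ZNF274 the log2 fold change was 0.11 ± 0.13 and for ZNF91 -0.17 ± 0.11, and for ZNF154 it was 0.00 ± 0.16.

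Of the 551 body peaks, 4 were closed after belinostat (0.73%, background 1.75%) and 1 was opened (0.18%, background 0.607%). The strongest was a pair of neighbouring peaks in cluster 3, within the annotated body of ZNF20 but 44.8 and 45.0 kb past its start and beyond the end of its canonical transcript. They also overlap the pseudogene ZNF788P, the long non-coding RNA gene ENSG00000290812 and the coding gene ENSG00000286132, and no annotated exon. The first, at chr19:12095490-12095709, ran from 1.39 through 1.86 to 2.26 log2 CPM in unstimulated libraries and from 1.56 through 1.69 to 2.15 after DMSO. After belinostat it ran from -0.25 through 0.67 to 1.03, below every library of the other groups. The log2 fold change from DMSO was -1.24 ± 0.24 (adjusted p = 0.00023), against -0.09 ± 0.19 in the cytokine contrast.

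Its neighbour, at chr19:12095233-12095428, ran from 0.84 through 1.12 to 1.57 log2 CPM after DMSO and from -0.61 through 0.13 to 0.92 after belinostat, where the groups overlapped slightly. Its log2 fold change was -1.21 ± 0.30 (adjusted p = 0.0087). Over the 26 alternative fits the adjusted p stayed between 0.00018 and 0.0030 for the first peak and between 0.0019 and 0.044 for the second. The belinostat libraries were the shallowest, and the part of depth in this fall was not tested. The 2 peaks are shown because their fall was the largest at any ZNF peak averaging at least 0 log2 CPM, with the AP-1 word TGANTCA, of which the second holds 1 and the first none, in capitals, on the plus strand of hg38.
chr19:12095490-12095709: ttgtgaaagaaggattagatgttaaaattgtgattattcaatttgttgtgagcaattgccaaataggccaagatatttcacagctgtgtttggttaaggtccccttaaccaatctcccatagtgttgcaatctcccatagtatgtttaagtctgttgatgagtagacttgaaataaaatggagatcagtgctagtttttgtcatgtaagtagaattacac
chr19:12095233-12095428: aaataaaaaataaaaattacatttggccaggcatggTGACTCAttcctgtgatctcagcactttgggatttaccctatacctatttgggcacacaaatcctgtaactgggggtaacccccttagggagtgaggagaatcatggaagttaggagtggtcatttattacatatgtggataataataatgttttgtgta

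The other 2 falls lay in introns of ZNF536. At chr19:30664103-30665058, past the end of the canonical transcript, unstimulated libraries ran from 3.46 through 3.63 to 3.83 log2 CPM, DMSO libraries from 3.16 through 3.25 to 3.37 and belinostat libraries from 2.24 through 2.77 to 2.89, so that the 3 groups did not overlap. The log2 fold change was -0.58 ± 0.15 from DMSO (adjusted p = 0.010) after -0.40 ± 0.13 in the cytokine contrast (adjusted p = 0.019). With loess offsets the belinostat value still passed (adjusted p = 0.033) and the cytokine value did not (0.67). The other, at chr19:30590460-30591320 and named after its values were seen, changed by -0.55 ± 0.16 (adjusted p = 0.031, and 0.082 with loess offsets).

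The 1 rise was an intronic peak of ZNF584, 5.6 kb after its start, at chr19:58414034-58414443. It ran from -0.85 through 0.34 to 0.68 log2 CPM after DMSO and from 0.09 through 1.02 to 1.61 after belinostat, with overlap, and unstimulated libraries had a median of 0.76. The log2 fold change of 1.03 ± 0.31 (adjusted p = 0.047) passed in 10 of 26 alternative fits.

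**Figure D5:**
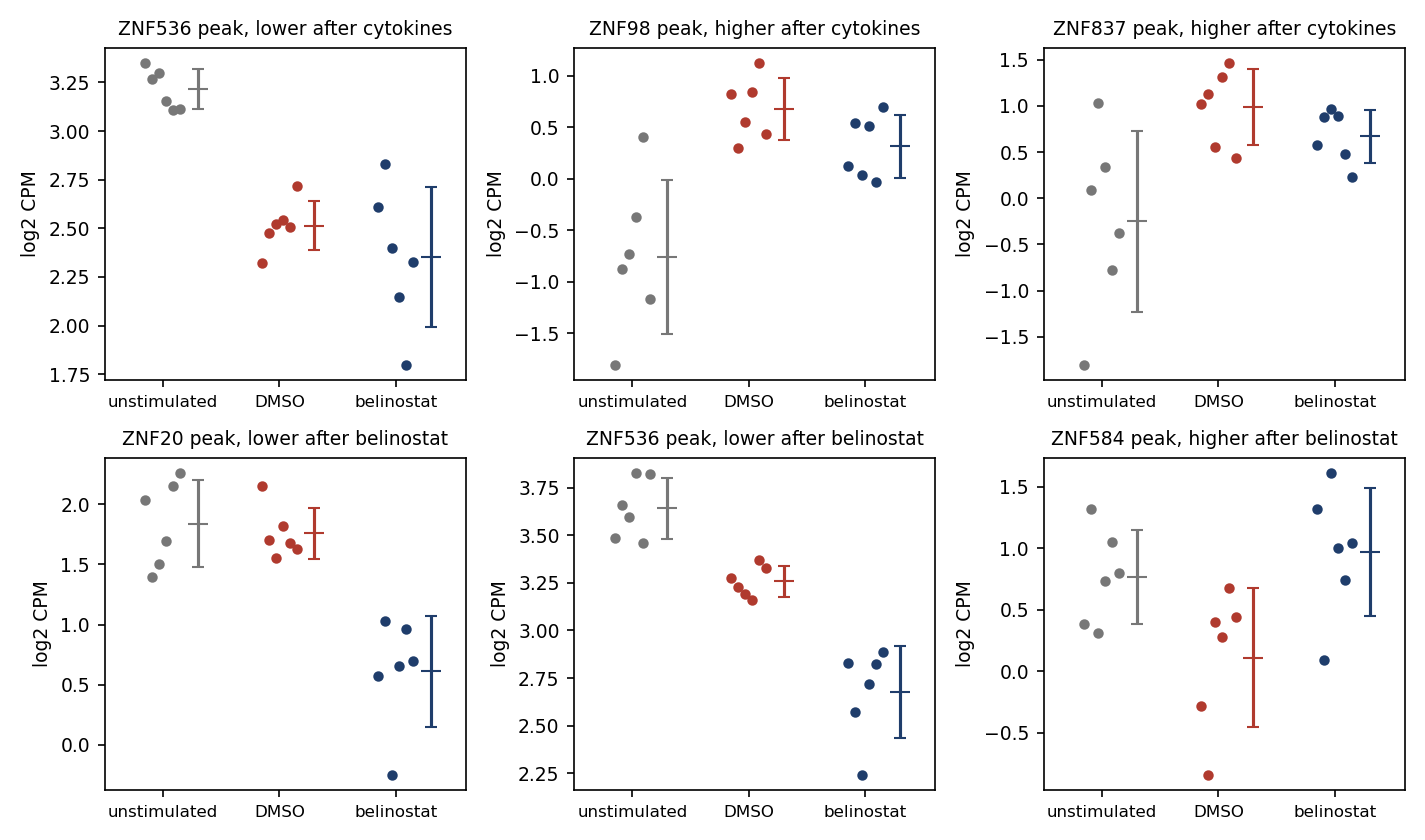
Each panel is 1 ZNF body peak, with log2 CPM on the y axis, points for the 6 libraries of each group and the mean ± SD beside them. The ZNF20 peak (chr19:12095490-12095709) falls from a DMSO mean of 1.76 to 0.61 after belinostat, and the ZNF536 peak of the top row falls from 3.22 to 2.51 after cytokines.

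Side by side with the others, the residual contrast between belinostat and unstimulated libraries closed 204 of 240 ZNF start peaks (85.0%) and opened 1, with a median of -0.47, where 13.7% of all peaks were closed and 16.8% opened and 60.9% of the other protein-coding starts were closed. With loess offsets 11 were opened (4.58%) and 1 closed (0.417%), where 3.81% of all peaks were opened and 4.93% closed. Among body peaks it opened 120 (21.8%) and closed 52 (9.44%), and with loess offsets 18 and 15. The 1 start peak opened with TMM factors was that of ZNF98, a weak peak with 52 counts over all libraries. Its log2 fold change was 1.75 ± 0.54 (edgeR adjusted p = 0.0091, and 0.24 with loess offsets).

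Genes that act with KRAB proteins or keep the same loci silent were read at their own starts. All 25 genes of the list had a start peak, 23 were closed and 0 opened in the cytokine contrast, 0 were called in the belinostat contrast, and with loess offsets 0 were called in either. Of all peaks 9.73% were closed by cytokines and of the other protein-coding starts 51.6%, and belinostat closed 1.75 and 0.654%. The median cytokine value was -0.38 on the log2 scale, close to that of all other starts at -0.33. TRIM28, at chr19:58543603-58545093 just beyond cluster 12, had a mean of 6.10 ± 0.14 log2 CPM in unstimulated libraries, 5.77 ± 0.11 after DMSO and 5.49 ± 0.25 after belinostat, with a cytokine log2 fold change of -0.33 ± 0.10 (adjusted p = 0.015). SETDB1 changed by -0.49 ± 0.12 (adjusted p = 0.0022), HDAC2, a target of belinostat, by -0.55 ± 0.11 (adjusted p = 0.0002), the largest of the list, and DNMT1, the maintenance DNA methyltransferase, by -0.38 ± 0.11 (adjusted p = 0.011). CHD3 (-0.26 ± 0.11, adjusted p = 0.078) and CHD4 (-0.24 ± 0.13, adjusted p = 0.19), the ATP-driven motors of the NuRD complex, did not pass.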

How the data were processed

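Bulk ATAC-seq was analysed in 18 libraries of Ccd18-Co cells, 6 per group. The authors aligned reads to hg38 with the ENCODE pipeline, used MACS2 for the peaks, joined those of every condition and counted fragments per peak with csaw. The deposited values are those raw counts, with no normalization, and every count column matched the title of 1 library. The authors scaled on background bins of the reads, which the table of peak counts does not allow. Libraries held 4661678 to 11352032 counts, which bounds the precision of weak peaks, and PCR duplicates were removed before counting.

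TMM factors over all peaks and edgeR 4.0.16 (glmQLFit with legacy=TRUE, R 4.3.3) were used, with 1 mean per group, adjustment over all 334857 peaks and a threshold of 0.05. Log2 CPM used a prior count of 2. A floor of -3 for the average log2 CPM removed 0 peaks. Alternatives were library totals, loess offsets (span 0.3), TMM over 10 kb bins of the peaks or from the weaker 50% only, DESeq2 1.42.0, a floor at 0, a replicate block, other start definitions and each library left out. Replicate numbers did not pair the libraries.

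Genes, exons and canonical starts came from GENCODE release 44 and windows from hg38. Identity between windows was the number of identical bases after global alignment over 300. Named peaks were, per contrast, the 4 largest rises and 4 largest falls among called start peaks averaging at least 0 log2 CPM and 3 and 3 among body peaks, the 4 strongest and 4 weakest gene starts, 13 fixed genes and 25 genes that act with KRAB proteins or keep the same loci silent. The members and lists were chosen with earlier results of these data known. Protein features were not analysed here.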

Additional observations from a re-analysis of the deposited data

Results flagged for a closer look

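Among the 117 sets of 6 libraries examined for the named peaks and shares, 4 held 1 library that stood apart from the other 5 by more than Dixon's 95% limit, where chance alone flags about 1 in 20 sets. Belinostat replicate 1 stood above the others at the ZNF101 start peak, at 4.53 log2 CPM. DMSO replicate 1 stood below the others at the ZNF555 body peak closed after cytokines, at 1.76 log2 CPM. Belinostat replicate 3 stood below the others at the first ZNF20 body peak, at -0.25 log2 CPM, and without it the fall after belinostat there was still called. DMSO replicate 3 stood above the others at the ZNF91 start peak, at 5.17 log2 CPM.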

How the results depend on the processing

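Under 28 alternatives, 55 values of the 8 counts of called ZNF peaks moved by more than 1.5 times, and the cause was not tested. The alternative without a filter could not differ, since the floor removed 0 peaks. With library totals, cytokines opened 2 and closed 17 start peaks and opened 103 and closed 9 body peaks, and belinostat closed 2 start peaks and opened 4 body peaks. With loess offsets, cytokines closed 1 start peak and opened 9 and closed 1 body peak. With TMM from the weaker 50% only, cytokines opened 13 and closed 100 body peaks, and belinostat opened 0 and closed 2. With a floor at an average of 0 log2 CPM, cytokines opened 1 and closed 90 start peaks and opened 34 and closed 13 body peaks, and belinostat closed 2 start peaks and opened 4 body peaks. With DESeq2, cytokines closed 104 start peaks and opened 19 and closed 12 body peaks, and belinostat closed 3 start peaks and opened 0 body peaks. Of the other protein-coding starts, cytokines closed 14.4% with library totals, 0.59% with loess offsets, 35.2% with the floor at 0 and 36.1% with DESeq2. In the same order belinostat closed 0.964, 0.403, 1.35 and 1.355% of them. With starts taken within 1 kb, 1 start peak was opened by cytokines, and with outermost gene starts 2 were opened and 51 body peaks closed. Leaving out 1 library gave 0 to 0 start peaks opened and 78 to 183 closed by cytokines, 29 to 62 body peaks opened and 16 to 40 closed, and for belinostat 0 to 0 start peaks opened, 0 to 11 closed (11 without belinostat replicate 1), 0 to 4 body peaks opened and 3 to 6 closed. With loess offsets 8 start peaks of the 13 fixed genes turned sign. The values were 0.0536 for ZNF91, 0.0112 for ZNF93, 0.0228 for ZNF568 (shared with ZNF829) and 0.1151 for ZNF160. They were 0.0061 for ZNF580, 0.0563 for ZNF582, 0.1268 for ZNF667 and 0.0924 for ZNF382. Of the strongest and weakest gene starts, ZNF558 (0.09), ZNF574 (0.12), ZNF444 (0.09), ZNF564 (0.01) and ZNF257 (-0.23) also turned sign. With the replicate block, cytokines closed 175 start peaks and opened 55 and closed 35 body peaks, and belinostat closed 3 start peaks and opened 0 and closed 4 body peaks. Libraries with the same replicate number correlated between -0.13 and 0.11 in their deviations from the group means, so the numbers were not treated as pairs. The SD between unstimulated libraries had a median of 0.42 on the log2 scale at body peaks and 0.15 at start peaks, and the part of depth in this was not tested.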
